A study of Mus musculus with 6 samples.

Results

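The 9 genes described here encode enzymes that mark the circadian clock's repressor proteins for destruction or protect them from it: the kinases Csnk1d, Csnk1e, Csnk2a1 and Gsk3b, the ubiquitin ligase subunits Fbxl21, Btrc, Fbxw11 and Ddb1, and the deubiquitinase Usp7. They were chosen by name for these roles, and their rows were found by Entrez Gene ID among 27179 genes in each table of counts. Genes had to average 100 normalized counts or more over the 6 libraries to be tested; 11934 did so, among them all 9. Poly-A RNA was sequenced from 3 immortalized lines of mouse embryonic fibroblasts with a C57BL/6 background, and 2 RNA preparations were sequenced per line. Cry/Per_KO cells lack CRY1, CRY2, PER1 and PER2, Per/Nr1d_KO cells lack PER1, PER2, NR1D1 and NR1D2 and keep both CRY proteins, and Cry/Per/Nr1d_KO cells lack all of these repressors. Loss of PER1 and PER2 is thus shared by every line, and no line with an intact clock was sequenced. Cry/Per/Nr1d_KO is a single clone, made from Cry/Per_KO cells by lentiviral Cas9 with guides to Nr1d1 and Nr1d2 and puromycin selection, and Per/Nr1d_KO was made earlier with the same guides. The cells were not synchronized and were harvested near confluence, so the values carry no information on the time of day. Since each genotype is 1 line, genotype and line cannot be told apart, and the p-values measure the spread between RNA preparations of a line.

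The genotype label and the name of the deposited counts of these libraries contradict each other for the Cry/Per_KO and Cry/Per/Nr1d_KO pairs. The genotype label is followed here, and the libraries are named Cry/Per_KO-labelled and Cry/Per/Nr1d_KO-labelled accordingly. If the other reading holds, every difference between these pairs changes sign, and the comparisons of Per/Nr1d_KO with each of them change places. Transcripts of all 6 disrupted genes were present in every line. Cry1 gave 5323 and 5478 normalized counts in the Cry/Per_KO-labelled libraries, 1698 and 1724 in the Cry/Per/Nr1d_KO-labelled pair, and 1535 and 1592 in Per/Nr1d_KO. Nr1d1 gave 9337 and 9249 normalized counts in the Cry/Per_KO-labelled libraries, 3158 and 3146 in the Cry/Per/Nr1d_KO-labelled pair, and 5359 and 4838 in Per/Nr1d_KO, and the lowest value of any disrupted gene was the 1004 of Per2 in Per/Nr1d_KO. Per1 averaged 5719, 3064 and 2243 in the same order, and Nr1d2 8135, 5193 and 5637. NR1D proteins are known to repress Cry1, and CRY proteins to repress Nr1d1 through CLOCK and BMAL1. On that background the lower Cry1 level in the Cry/Per/Nr1d_KO-labelled pair than in the Cry/Per_KO-labelled pair goes against the genotype label. Under exchanged labels it would not. Nr1d1 in the Cry/Per/Nr1d_KO-labelled pair also lay below Per/Nr1d_KO. This pair lacks CRY proteins under either label, so repression by CRY alone does not separate the readings. The paper, however, reports Nr1d1 and Nr1d2 as lower in Per/Nr1d_KO than in Cry/Per/Nr1d_KO cells. Here both were higher in Per/Nr1d_KO than in the Cry/Per/Nr1d_KO-labelled pair and lower than in the Cry/Per_KO-labelled pair. That too is the direction of exchanged labels. Per2 averaged 6736 in the Cry/Per_KO-labelled pair and 4932 in the Cry/Per/Nr1d_KO-labelled pair. The paper reports Cry1, Nr1d1, Nr1d2, Per1 and Per2 as lower in Cry/Per_KO than in Cry/Per/Nr1d_KO cells. Here each of these was higher in the Cry/Per_KO-labelled pair, so the paper's directions are those of exchanged labels. The names of the deposited counts go the same way. Every signed difference below that involves these pairs is printed for the genotype label. By the paper's directions and the deposited names it should be read with the labels exchanged. The libraries held 53764390 to 85927236 counts. Log2 CPM correlated at 0.998 between the libraries of each line, across genes, which are not independent replicates. Of 9 fibroblast markers, 6 were over 100 normalized counts in all libraries, while Thy1 and Lum stayed between 0 and 9.77 and Dcn between 43.4 and 139. The markers differed between lines: Col3a1 averaged 43303 in Per/Nr1d_KO, 819 in the Cry/Per/Nr1d_KO-labelled libraries and 292 in the Cry/Per_KO-labelled pair, and Pdgfra 4144, 12642 and 9771. The 10 markers of other cell types summed to 189 to 207 in the Cry/Per_KO-labelled and Cry/Per/Nr1d_KO-labelled libraries and to 400 to 421 in Per/Nr1d_KO, mostly from Cd68 and, in Per/Nr1d_KO, also from Cdh1, an epithelial cadherin, which averaged 105 there against 17.9 in the Cry/Per/Nr1d_KO-labelled libraries and 9.98 in the Cry/Per_KO-labelled pair. Adgre1, Myod1, Sox10, Krt5 and Ptprc did not exceed 3.95 in any library. The part of these differences and of these cells in the results was not tested.

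In the feedback loop of the clock, CLOCK and BMAL1 switch on the Per and Cry genes, and the PER and CRY proteins then enter the nucleus and repress CLOCK and BMAL1. The pace of this loop depends on how fast PER and CRY are destroyed. Casein kinase 1 delta and epsilon phosphorylate PER, and the phosphorylated protein is recognised by beta-TrCP, an F-box protein that exists as the related proteins encoded by Btrc and Fbxw11. CRY is recognised by F-box proteins such as FBXL21 and by ligases built on the adaptor DDB1, while the deubiquitinase USP7 removes ubiquitin from CRY1. These steps act on proteins, and transcript levels of the enzymes do not measure their activity.

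Promoter windows of 250 bases before to 50 bases after a transcript start, from RefSeq on GRCm38.p6, were held for 7 of the 9 genes, in 10 windows. They were searched on both strands for the E-box CACGTG and the E'-box CACGTT, which CLOCK and BMAL1 bind, for AGGTCA, the core of the element shared by ROR and NR1D proteins, and for the D-box TTATGNAA. Only the Ddb1 window held a match, an E'-box on the reverse strand that starts 22 bases before the transcript start. Among all 32851 windows of this length, 4.68% held the E'-box, 7.15% the E-box, 16.3% the AGGTCA core and 3.38% the D-box. Shown are the stretches before the transcript start of Ddb1, the member with the highest level and the match, and before the gene start of Fbxl21, the member that differed most between lines. The last 29 bases of the Ddb1 stretch, which hold the match, lie past the start of the RefSeq gene. Both are from the plus strand, chr19:10605347-10605596 and chr13:56522222-56522387, written in lower case with the reverse complement of the E'-box in capitals.
Ddb1: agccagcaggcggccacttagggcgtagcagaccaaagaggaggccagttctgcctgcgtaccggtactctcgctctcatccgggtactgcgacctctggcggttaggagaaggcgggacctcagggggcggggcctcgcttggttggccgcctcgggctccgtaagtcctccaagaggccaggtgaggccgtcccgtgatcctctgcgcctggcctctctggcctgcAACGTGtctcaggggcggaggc
Fbxl21: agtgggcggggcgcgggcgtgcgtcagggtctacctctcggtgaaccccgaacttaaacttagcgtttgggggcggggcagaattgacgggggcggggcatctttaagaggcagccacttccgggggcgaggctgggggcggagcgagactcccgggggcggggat
The search shows only which of these letters occur in the windows, and binding was not measured.

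The levels of the 9 genes spanned a wide range, and the order between genes is given as mean normalized counts per kilobase of exon over the 6 libraries. Ddb1 was far above the rest at 22656 per kilobase. Csnk1d followed at 4271, Usp7 at 3881 and Fbxw11 at 2292. Csnk1e, Gsk3b and Csnk2a1 lay together at 1367, 1349 and 1161, Btrc was at 458, and Fbxl21 was the lowest at 43.8. The abundance therefore differed between the partners of each related pair, with Csnk1d above Csnk1e and Fbxw11 above Btrc in every library.

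Across the lines, 8 of the 9 genes stayed within a narrow band, and Fbxl21 was the exception. A gene was called when edgeR's quasi-likelihood test gave a Benjamini-Hochberg adjusted p under 0.05 and its log2 fold change was over 0.81 in size, the fold limit the study used. By this rule 1 of the 9 genes was called in each of the 3 comparisons, and it was Fbxl21 each time. Fbxl21 passed the floor of 100 only through the Cry/Per_KO-labelled libraries, where it averaged 177, against 89.5 in Per/Nr1d_KO and 35.4 in the Cry/Per/Nr1d_KO-labelled pair, so these counts are a description. Over all genes tested, 16.8% were called between the Cry/Per_KO-labelled libraries and the Cry/Per/Nr1d_KO-labelled pair, 20.7% between Per/Nr1d_KO and the Cry/Per/Nr1d_KO-labelled pair, and 29.0% between Per/Nr1d_KO and the Cry/Per_KO-labelled pair. Split by direction, 7.86% were called higher and 8.95% lower in the first of these comparisons, 11.3% and 9.35% in the second, and 15.2% and 13.8% in the third. Without a limit on the fold, 8, 7 and 7 of the 9 passed the adjusted p in these comparisons, beside 76.4%, 75.8% and 82.1% of all genes tested, so a small difference that passes the test is the usual state of a gene here. Higher and lower were 5 and 3 of the 9 in the first comparison, beside 38.1% and 38.3% of all genes tested, 4 and 3 in the second, beside 38.7% and 37.1%, and 4 and 3 in the third, beside 42.8% and 39.3%. The median size of the log2 fold change among the 9 was 0.31 beside 0.34 over all genes tested in the first comparison, 0.32 beside 0.34 in the second and 0.28 beside 0.46 in the third. Between the group means of a gene other than Fbxl21, the highest was 1.20 to 1.48 times the lowest. The comparisons share libraries, so their results are not independent of each other.

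**Figure D1:**
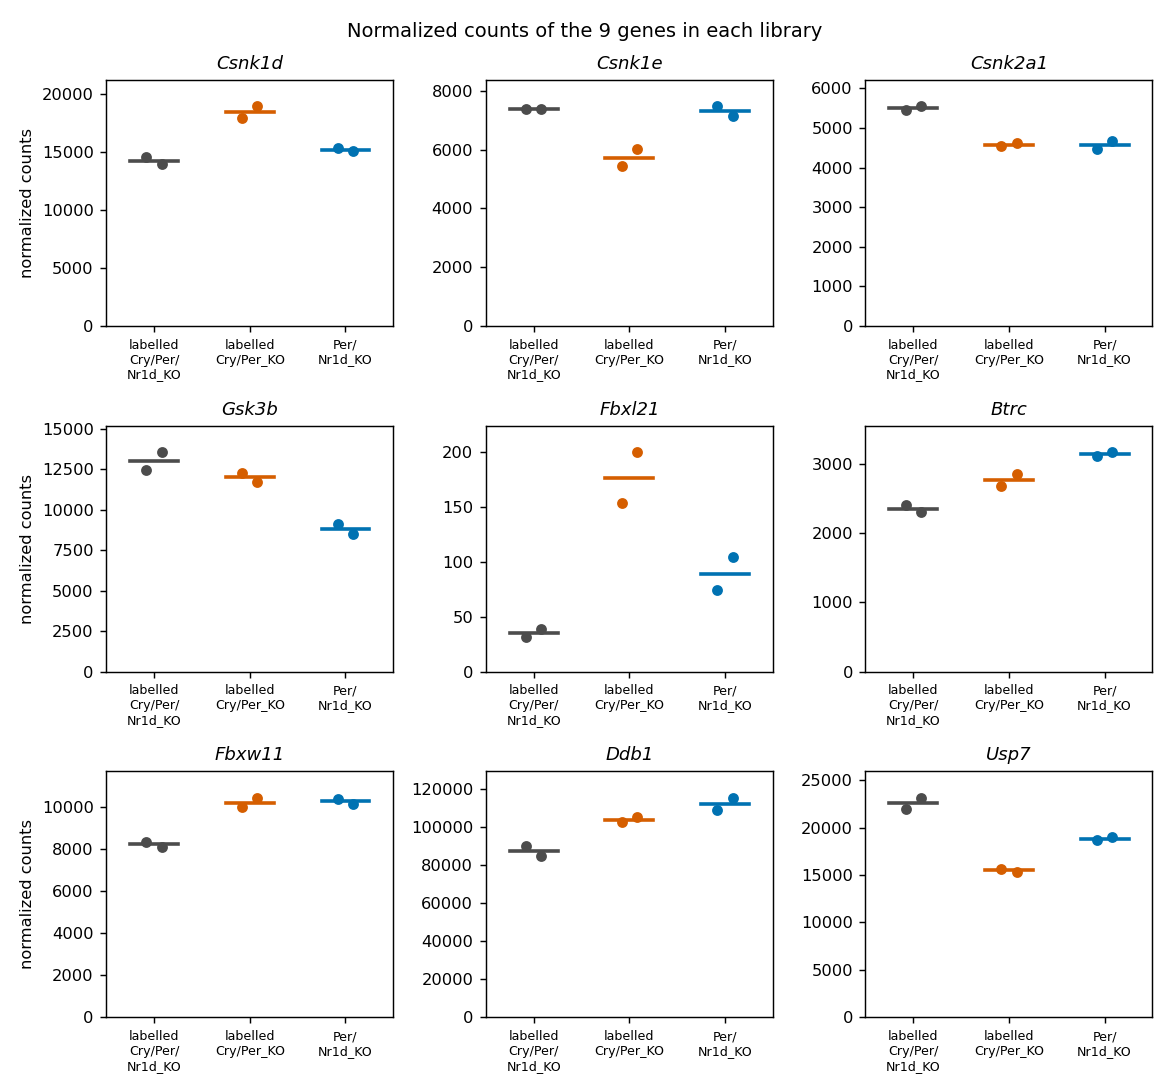
Normalized counts of the 9 genes, on a linear axis from 0 in each panel, with 1 point per library and a bar at the mean of the 2 libraries of a line. Fbxl21 ran from 32.0 to 200.3 with no overlap between lines, while the highest group mean of each of the others was at most 1.48 times the lowest.

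Among the kinases, the casein kinase 1 genes moved in opposite directions in the Cry/Per_KO-labelled libraries. Csnk1d (Entrez 104318, chr11:120957709-120991350), which encodes casein kinase 1 delta, gave 17921 and 18953 normalized counts in the Cry/Per_KO-labelled libraries. It gave 14559 and 13929 in the Cry/Per/Nr1d_KO-labelled pair and 15304 and 15115 in Per/Nr1d_KO. The Cry/Per_KO-labelled libraries thus lay above all the others, by 0.37 ± 0.044 (SE) on the log2 scale over the Cry/Per/Nr1d_KO-labelled pair (edgeR adjusted p = 2.0e-06). Per/Nr1d_KO was 0.28 ± 0.044 lower than the Cry/Per_KO-labelled libraries (edgeR adjusted p = 3.2e-05), with a log2 fold change of -0.28. Per/Nr1d_KO and the Cry/Per/Nr1d_KO-labelled libraries differed by 0.09 in Csnk1d, with a 95% interval of -0.00061 to 0.19 (edgeR adjusted p = 0.066).

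Csnk1e (Entrez 27373, chr15:79417852-79455579), the epsilon form, was lowest in the Cry/Per_KO-labelled libraries, at 5428 and 6005 normalized counts. It stood at 7375 and 7392 in the Cry/Per/Nr1d_KO-labelled pair and at 7482 and 7154 in Per/Nr1d_KO, ranges that overlap. Its log2 fold change was -0.37 ± 0.052 in the Cry/Per_KO-labelled libraries relative to the Cry/Per/Nr1d_KO-labelled pair (edgeR adjusted p = 1.2e-05) and 0.35 ± 0.052 in Per/Nr1d_KO relative to the Cry/Per_KO-labelled pair (edgeR adjusted p = 1.3e-05). The remaining comparison gave -0.01 with a 95% interval of -0.12 to 0.10. Genes of chromosome 15 moved the same way as a whole: their median log2 fold change was -0.29 in the first of these comparisons and 0.35 in the second, and Csnk1e less its chromosome's median came to -0.08 and 0.01. For Csnk1d on chromosome 11 the medians were 0.04 and -0.03, and the differences kept their size, at 0.34 and -0.25. What moved these chromosome medians was not tested.

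The ratio of the casein kinase 1 genes can be read within each library, free of the scaling between libraries. Per kilobase, Csnk1d was 4.30 ± 0.137 (SD, n = 2) times Csnk1e in the Cry/Per_KO-labelled libraries, 2.57 ± 0.0845 in the Cry/Per/Nr1d_KO-labelled pair and 2.77 ± 0.0634 in Per/Nr1d_KO. The ratio in both libraries labelled Cry/Per_KO lay above that in the 4 others. It is not free of shifts of whole chromosomes. Between the Cry/Per_KO-labelled and Cry/Per/Nr1d_KO-labelled pairs Csnk1e moved by -0.37, beside a median of -0.29 for its chromosome 15. No 50-base stretch, the length of a read, is shared between the transcripts of these genes, so no read matches both exactly. Of the exon bases of Csnk1e, 5.22% lie opposite Gm16059, and of those of Csnk1d 1.69% lie opposite Gm28192.

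Csnk2a1 (Entrez 12995, chr2:152226535-152281856) encodes the catalytic alpha subunit of casein kinase 2, which phosphorylates PER2 and BMAL1. It was highest in the Cry/Per/Nr1d_KO-labelled libraries, at 5453 and 5553 normalized counts, and stood at 4539 and 4612 in the Cry/Per_KO-labelled pair and at 4476 and 4660 in Per/Nr1d_KO. The log2 fold change was -0.27 ± 0.046 both for the Cry/Per_KO-labelled libraries (edgeR adjusted p = 9.5e-05) and for Per/Nr1d_KO, each relative to the Cry/Per/Nr1d_KO-labelled pair. Between Per/Nr1d_KO and the Cry/Per_KO-labelled libraries the values overlapped, and the difference of 0.00 had a 95% interval of -0.10 to 0.10. The medians of its chromosome 2 were -0.19 and -0.11 in the first and the second comparison, and Csnk2a1 less these came to -0.07 and -0.15. Of the 50-base stretches of Csnk2a1, 32.5% also occur in 4 pseudogenes, and since the treatment of reads that map to several places is not given in the sources used here, its level is uncertain.

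Gsk3b (Entrez 56637, chr16:38089001-38246084) encodes glycogen synthase kinase 3 beta, which phosphorylates several clock proteins, among them NR1D1. Per/Nr1d_KO had the lowest values, 9098 and 8466 normalized counts, against 12448 and 13559 in the Cry/Per/Nr1d_KO-labelled libraries and 12247 and 11723 in the Cry/Per_KO-labelled pair. The log2 fold change of Per/Nr1d_KO was -0.57 ± 0.052 relative to the Cry/Per/Nr1d_KO-labelled libraries (edgeR adjusted p = 9.3e-08), 1.48 times lower, and -0.45 ± 0.052 relative to the Cry/Per_KO-labelled pair (edgeR adjusted p = 9.9e-07). Between the last-named pairs the log2 fold change was -0.12, with a 95% interval of -0.23 to -0.0071, and it missed the threshold (edgeR adjusted p = 0.050). Without 1 library this value ran from -0.18 to -0.055, with the larger p-values without replicate 2 of the Cry/Per/Nr1d_KO-labelled pair (edgeR adjusted p = 0.39) and without replicate 2 of the Cry/Per_KO-labelled pair (0.22), and it passed the adjusted p in 8 of 21 settings. Among the 8 genes that were not called, Gsk3b had the widest span between lines, 0.57 beside 0.54 for Usp7 on the log2 scale. Less the median of its chromosome 16, Gsk3b in Per/Nr1d_KO came to -0.44 relative to the Cry/Per/Nr1d_KO-labelled libraries. Relative to the Cry/Per_KO-labelled pair it came to -0.38. Both are smaller in size than the -0.54 of Usp7 less the same chromosome's median in the first comparison.

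**Figure D2:**
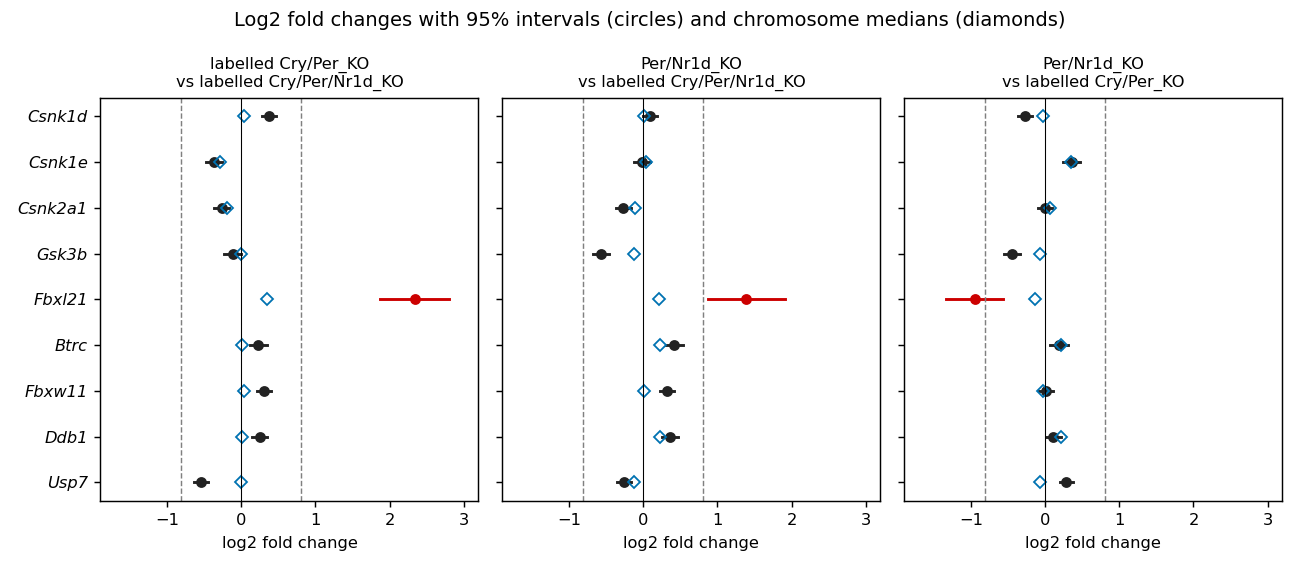
Log2 fold changes of the 9 genes in the 3 comparisons (circles) with 95% intervals from edgeR, the median of all genes tested on the same chromosome (open diamonds), and the fold limit at 0.81 on either side (dashed lines). Only Fbxl21, in red, lay beyond the limit, at 2.34, 1.39 and -0.95, and Csnk1e lay near its chromosome's median in each panel.

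Of the ligase subunits, Fbxl21 (Entrez 213311, chr13:56522388-56537898), the F-box protein that ubiquitinates CRY, differed most. The raw counts were 36 and 35 in the Cry/Per/Nr1d_KO-labelled libraries, 138 and 204 in the Cry/Per_KO-labelled pair and 59 and 132 in Per/Nr1d_KO. After normalization these were 32.0 and 38.9, 153.6 and 200.3, and 74.8 and 104.2. The lines did not overlap, and the order was the Cry/Per_KO-labelled libraries, then Per/Nr1d_KO, then the Cry/Per/Nr1d_KO-labelled pair. Fbxl21 was 5.06 times higher in the Cry/Per_KO-labelled libraries than in the Cry/Per/Nr1d_KO-labelled pair, a log2 fold change of 2.34 ± 0.22. In Per/Nr1d_KO it was 2.62 times the level of the Cry/Per/Nr1d_KO-labelled libraries, a log2 fold change of 1.39 ± 0.24. Relative to the Cry/Per_KO-labelled libraries Per/Nr1d_KO had a log2 fold change of -0.95 ± 0.18. Since the floor of 100 was passed through 1 line, the test is given at a floor of 10, which the mean of every line exceeds: edgeR gave 2.34 (adjusted p = 1.7e-08), 1.39 (adjusted p = 4.2e-05) and -0.95 (adjusted p = 9.2e-05).

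The low level of Fbxl21 bears on these calls. Its mean of 100.6 normalized counts is just over the floor of 100, and with DESeq2's size factors the mean was 98.7, so that DESeq2 at the same floor did not test it. With a floor of 10, chosen after the data were seen, DESeq2 gave log2 fold changes of 2.33, 1.35 and -0.98 and called Fbxl21 in all 3 comparisons. The first 2 calls also held without any 1 library at that floor, with log2 fold changes of 2.13 to 2.51 and of 1.08 to 1.57. The difference between Per/Nr1d_KO and the Cry/Per_KO-labelled libraries fell within the fold limit without replicate 2 of the Cry/Per_KO-labelled pair (-0.74) and without replicate 1 of Per/Nr1d_KO (-0.77), and edgeR's glmTreat test against the fold limit did not call it (adjusted p = 0.32). Fbxl21 shares no exon base with another gene and no 50-base stretch with another transcript.

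Genes of chromosome 13 had a median log2 fold change of 0.35 in the Cry/Per_KO-labelled libraries relative to the Cry/Per/Nr1d_KO-labelled pair, and Fbxl21 less that median remained at 1.99. Within 500000 bases of Fbxl21, 3 genes were tested, looked up after their values were seen. Macroh2a1, a histone variant gene, gave 0.26 in the first comparison, 0.28 in the second and 0.02 in the third. Smad5, which carries BMP signals, gave 0.62, 0.35 and -0.26, the signs of Fbxl21 in all 3 at sizes within the fold limit. Tgfbi, an extracellular matrix gene induced by TGF-beta, gave -3.39, 3.12 and 6.51, opposite in sign to Fbxl21 in the first and the third.

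The tested genes with the pattern nearest to that of Fbxl21 over the 6 libraries were Mgat4a, Ankrd55, Slc9a9, Pdk1 and A330035P11Rik, at distances of 0.375 to 0.668 on the log2 scale between profiles centred on their means. Mgat4a, a glycosyltransferase gene, gave 151 and 144 normalized counts in the Cry/Per/Nr1d_KO-labelled libraries, 691 and 722 in the Cry/Per_KO-labelled pair and 319 and 372 in Per/Nr1d_KO. Pdk1, a kinase that inhibits pyruvate dehydrogenase, had the same order at a far higher level, from 2896 to 13023. These genes lie on chromosomes 1, 13, 9, 2 and 14.

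The beta-TrCP genes were both lowest in the Cry/Per/Nr1d_KO-labelled libraries. Btrc (Entrez 12234, chr19:45363688-45533343) gave 2404 and 2299 normalized counts there, 2673 and 2846 in the Cry/Per_KO-labelled libraries and 3114 and 3171 in Per/Nr1d_KO, with no overlap between the lines. Its log2 fold changes were 0.23 ± 0.055, 0.42 ± 0.055 and 0.19 ± 0.055 in the 3 comparisons, and the last of these missed the adjusted p without replicate 1 of the Cry/Per_KO-labelled pair (0.070). Fbxw11 (Entrez 103583, chr11:32642555-32746816) gave 8339 and 8099 normalized counts in the Cry/Per/Nr1d_KO-labelled libraries, 9962 and 10427 in the Cry/Per_KO-labelled pair and 10380 and 10145 in Per/Nr1d_KO. The log2 fold changes of Fbxw11 relative to the Cry/Per/Nr1d_KO-labelled libraries were 0.31 ± 0.044 and 0.32 ± 0.044. Its difference of 0.01 between Per/Nr1d_KO and the Cry/Per_KO-labelled libraries had a 95% interval of -0.085 to 0.10. Fbxw11 was 5.33 ± 0.0634 (SD, n = 2) times Btrc per kilobase in the Cry/Per_KO-labelled libraries, 5.04 ± 0.0560 in the Cry/Per/Nr1d_KO-labelled pair and 4.71 ± 0.136 in Per/Nr1d_KO, so their balance varied far less than that of the casein kinase 1 genes.

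Ddb1 (Entrez 13194, chr19:10605568-10629828) encodes the adaptor that links substrate receptors to the cullin 4 ligases. It gave 90046 and 84639 normalized counts in the Cry/Per/Nr1d_KO-labelled libraries, 102466 and 104949 in the Cry/Per_KO-labelled pair and 108706 and 115327 in Per/Nr1d_KO. The order of the lines was that of Btrc, with log2 fold changes of 0.25 ± 0.048, 0.36 ± 0.048 and 0.11 ± 0.048. The third was at the edge of the test (edgeR adjusted p = 0.045) and missed it with median-of-ratios size factors (0.055) and with the replicate number as a block (0.096). It also missed it without replicate 1 (0.20) or replicate 2 (0.078) of the Cry/Per_KO-labelled pair and without replicate 2 of Per/Nr1d_KO (0.29), where the log2 fold change was 0.069. Btrc and Ddb1 both lie on chromosome 19, whose genes had a median log2 fold change of 0.23 in Per/Nr1d_KO relative to the Cry/Per/Nr1d_KO-labelled libraries and 0.22 relative to the Cry/Per_KO-labelled pair. Less these medians, the log2 fold changes were 0.19 and -0.03 for Btrc and 0.13 and -0.10 for Ddb1. Of the exon bases of Ddb1, 6.82% lie opposite Tkfc, and the strand setting of the counting is not given in the sources used here.

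**Figure D3:**
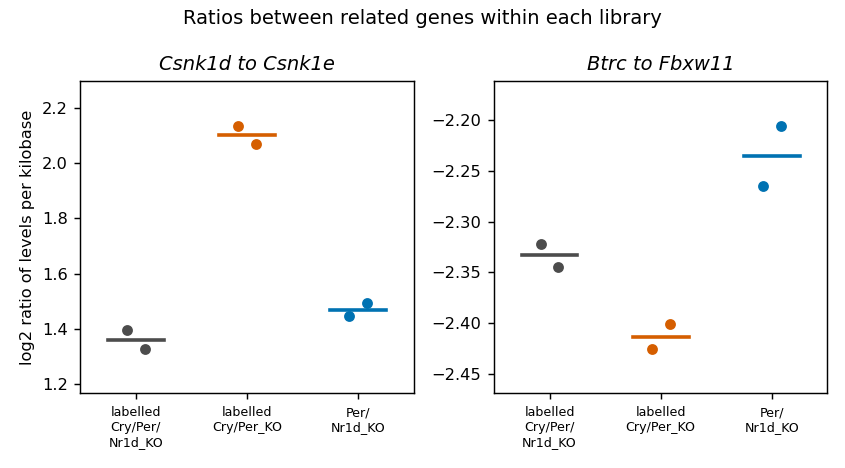
Log2 ratios of levels per kilobase between related genes, with 1 point per library and a bar at the mean of each line; the axes differ between panels and do not start at 0. Csnk1d was 4.30 times Csnk1e in the Cry/Per_KO-labelled libraries and 2.57 and 2.77 times in the other lines, while the ratio of Btrc to Fbxw11 spanned a narrow range.

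Usp7 (Entrez 252870, chr16:8688722-8757067), whose product removes ubiquitin from CRY1 and from MDM2, was lowest in the Cry/Per_KO-labelled libraries. It gave 15588 and 15361 normalized counts there, 18679 and 18987 in Per/Nr1d_KO and 21985 and 23139 in the Cry/Per/Nr1d_KO-labelled libraries, and no lines overlapped. The log2 fold change of the Cry/Per_KO-labelled libraries relative to the Cry/Per/Nr1d_KO-labelled pair was -0.54 ± 0.042 (edgeR adjusted p = 1.8e-08), 1.46 times lower. Per/Nr1d_KO lay between, at -0.26 ± 0.042 relative to the Cry/Per/Nr1d_KO-labelled libraries and 0.28 ± 0.042 relative to the Cry/Per_KO-labelled pair. Genes of chromosome 16 had a median log2 fold change of -0.01 in the first comparison, and Usp7 less that median was -0.54. In the second the median was -0.13, and Usp7 less it was -0.13. Its order across the lines was the reverse of that of Fbxl21.

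A further 51 genes of the same pathway were counted by group, and all 51 were tested. Of these, 3 were called between the Cry/Per_KO-labelled libraries and the Cry/Per/Nr1d_KO-labelled pair (1 higher, 2 lower), 3 between Per/Nr1d_KO and the Cry/Per/Nr1d_KO-labelled pair (1 higher, 2 lower) and 8 between Per/Nr1d_KO and the Cry/Per_KO-labelled pair (3 higher, 5 lower), beside the 16.8%, 20.7% and 29.0% of all genes tested. The median size of their log2 fold changes was 0.17, 0.24 and 0.33, beside 0.34, 0.34 and 0.46 over all genes tested.

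Among the 7 relatives of the kinases, edgeR and DESeq2 called 0 in the first comparison and 0 in the second, where 7 and 6 had an unadjusted p under 0.05 by edgeR, and both called 2 in the last. Csnk1a1, casein kinase 1 alpha, was at 13515 normalized counts in Per/Nr1d_KO and 24050 in the Cry/Per_KO-labelled libraries, a log2 fold change of -0.83 ± 0.045, just past the fold limit. It was -0.80, within the limit, without replicate 2 of Per/Nr1d_KO, and the median of its chromosome 18 was -0.45. Csnk1g1, a gamma form, was at 4570 and 8750, a log2 fold change of -0.94 ± 0.049, while the median of its chromosome 9 was -0.84.

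Of the 11 other kinases that act on clock proteins, Prkaa2 was called in both comparisons of Per/Nr1d_KO and Camk2d between the other pairs. Prkaa2, the alpha 2 subunit of AMP-activated kinase, which phosphorylates CRY1, averaged 237 normalized counts in Per/Nr1d_KO, 760 in the Cry/Per/Nr1d_KO-labelled libraries and 1318 in the Cry/Per_KO-labelled pair. Its log2 fold changes in Per/Nr1d_KO were -1.66 ± 0.099 and -2.46 ± 0.096 relative to these pairs. Prkaa2 also differed between these pairs, 0.80 ± 0.083 higher in the Cry/Per_KO-labelled libraries (edgeR adjusted p = 4.9e-07), just within the fold limit. Less the median of its chromosome 4, that difference was 0.74. Camk2d, a calcium-dependent kinase gene, was lower in the Cry/Per_KO-labelled libraries than in the Cry/Per/Nr1d_KO-labelled pair, at -0.84 ± 0.047 beside a median of -0.65 for its chromosome 3. Of the 8 phosphatase genes, edgeR and DESeq2 called 0 in each comparison, while 4, 6 and 5 had an unadjusted p under 0.05 by edgeR.

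The 10 core genes of the SCF and cullin 4 ligases, into which the F-box proteins and DDB1 assemble, were mostly lower in the Cry/Per_KO-labelled libraries. Relative to the Cry/Per/Nr1d_KO-labelled pair, 7 of the 10 were lower and 1 was higher at the adjusted p (38.3% and 38.1% of all genes tested), and their median log2 fold change was -0.29. Per/Nr1d_KO relative to the Cry/Per_KO-labelled libraries had 8 higher and 2 lower (42.8% and 39.3%), with a median of 0.35. Most of these differences were within the fold limit. The called genes were Ube2d3, a ubiquitin-conjugating enzyme, at -1.06 ± 0.069 in the first comparison and 0.91 ± 0.069 in the last, and Nedd8, the modifier that activates cullins, at 0.98 ± 0.085 in the last. The medians of chromosome 3, which holds Ube2d3, were -0.65 and 0.88 in these comparisons, and that of chromosome 14, which holds Nedd8, was 0.62.

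Among the 11 other ligase genes of clock proteins, Mdm2 and Arih2 were called. Mdm2, the p53 ligase that also acts on PER2, averaged 15890 normalized counts in Per/Nr1d_KO, 8851 in the Cry/Per/Nr1d_KO-labelled libraries and 7768 in the Cry/Per_KO-labelled pair, log2 fold changes of 0.84 ± 0.043 and 1.03 ± 0.044. Arih2 was higher in the Cry/Per_KO-labelled libraries, at 6499 against 3424 in the Cry/Per/Nr1d_KO-labelled pair (0.92 ± 0.060) and 2619 in Per/Nr1d_KO (-1.31 ± 0.061 for Per/Nr1d_KO). The medians of its chromosome 9 were 0.38 and -0.84. Of the 4 other deubiquitinase genes, Usp2, whose product deubiquitinates PER1 and CRY1, was called. It averaged 147 in Per/Nr1d_KO, 443 in the Cry/Per/Nr1d_KO-labelled libraries and 282 in the Cry/Per_KO-labelled pair, log2 fold changes of -1.60 ± 0.13 and -0.96 ± 0.14. The medians of chromosome 9, which also holds Usp2, were -0.46 and -0.84 in these comparisons, and without replicate 2 of the Cry/Per_KO-labelled pair the second value was -0.76, within the fold limit.

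**Figure D4:**
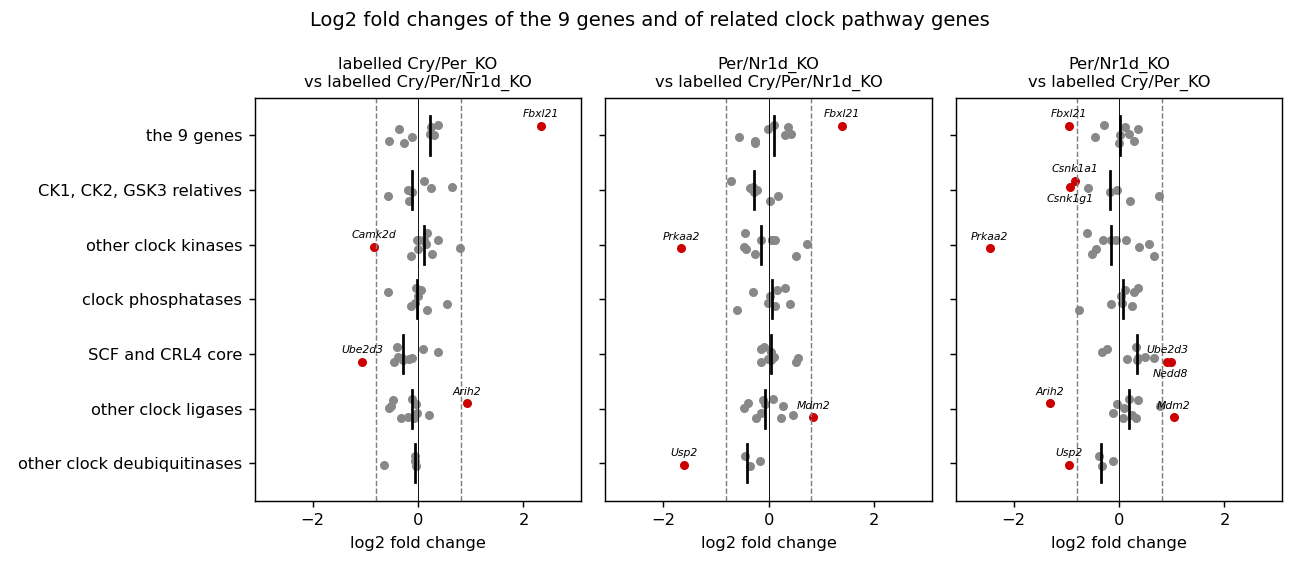
Log2 fold changes of the 9 genes and of the 51 related genes, 1 point per gene in 7 groups, with the median of each group as a black bar and called genes named in red; dashed lines mark the fold limit at 0.81 and points are spread vertically only to separate them. Of the genes shown, Prkaa2 lay farthest to the left in both comparisons of Per/Nr1d_KO, at -1.66 and -2.46, and the core ligase genes lay mostly above 0 in Per/Nr1d_KO relative to the Cry/Per_KO-labelled libraries, with a median of 0.35.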

How the data were processed

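Per the labels and the study's methods, the authors mapped single-end reads of 50 bases from strand-specific libraries to mm10 with STAR, counted them with featureCounts and deposited whole-number counts per Entrez gene. The authors' deposited DESeq2 tables hold their own fold changes and p-values and were not used. Symbols matched 25275 genes through RefSeq (GRCm38.p6), and exon lengths and shared bases came from GENCODE vM21.

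Counts were scaled by TMM and tested in R 4.3.3 with edgeR 4.0.16 (glmQLFit, glmQLFTest), all 6 libraries in one fit of 3 groups without a block. The biological coefficient of variation was 0.0393. SE is the size of the log2 fold change divided by the square root of F. The analysis was run on simulated data with 200 genes changed in Per/Nr1d_KO only. These are far fewer genes than differed here, changed by larger folds than most differences reported. The simulation therefore does not measure accuracy for small differences. The 9 genes and the lists were chosen with earlier results of these data known. Genes named are the 9, every called gene of the 51 pathway genes and the 5 nearest to Fbxl21; the neighbours of Fbxl21, Cry1, Per1, Per2, Nr1d1, Nr1d2 and the cell type markers were named after their values were seen. Some further genes of the pathway are not reported here. Alternatives were DESeq2 1.42.0, the study's criteria, other filters and size factors, glmTreat, the compared groups alone, a replicate block, leaving out each library, exchanged labels and subtracted chromosome medians. A lone library left in a line was assumed to vary like the other lines.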

Additional observations from a re-analysis of the deposited data

How the results depend on the processing

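With exchanged genotype labels each difference between the Cry/Per_KO and Cry/Per/Nr1d_KO libraries reversed: Csnk1d -0.37, Csnk1e 0.37, Csnk2a1 0.27, Gsk3b 0.12, Fbxl21 -2.34, Btrc -0.23, Fbxw11 -0.31, Ddb1 -0.25, Usp7 0.54, Camk2d 0.84, Ube2d3 1.06 and Arih2 -0.92. Per/Nr1d_KO relative to Cry/Per/Nr1d_KO then gave Csnk1d -0.28, Csnk1e 0.35, Fbxl21 -0.95 and Usp7 0.28, with 8 pathway genes called, and relative to Cry/Per_KO it gave Csnk1d 0.094, Csnk1e -0.014, Fbxl21 1.39, Usp7 -0.26 and Ube2d3 -0.15, with 3 called. With DESeq2 at a floor of 100, at an adjusted p under 0.05 or under the study's 1e-22, 0 of the 9 genes were called in each comparison, and Fbxl21 was not tested (at a floor of 10 its DESeq2 adjusted p was 4.8e-12, 0.00013 and 0.0017, none under 1e-22), while 8, 6 and 6 of the 8 tested had an unadjusted p under 0.05 and edgeR called 1. The same held for 0 calls between Per/Nr1d_KO and Cry/Per/Nr1d_KO fitted alone (6 of 8 at an unadjusted p under 0.05) and for the fits without either Cry/Per_KO-labelled library or without replicate 2 of Per/Nr1d_KO. Leaving out 1 library gave 0 to 1 of the 9 genes called in each comparison, at floors of 100 and 10. By glmTreat 0 were called between Per/Nr1d_KO and Cry/Per_KO (0 at an unadjusted p under 0.05), and 1 pathway gene between Cry/Per_KO and Cry/Per/Nr1d_KO. Without a limit on the fold, 8, 7 and 7 of the 9 and 34, 36 and 43 pathway genes were called. The study's criteria gave 5 pathway genes in the third comparison, and so did glmTreat.

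With chromosome medians subtracted, Camk2d (-0.20), Ube2d3 (-0.42) and Arih2 (0.55) fell within the fold limit in the first comparison. The 1 pathway gene then called there was Usp2, at -1.02 after subtraction and -0.64 before it. In the third comparison 2 pathway genes were called, and Btrc (-0.028) and Ddb1 (-0.10) reversed. Differences near 0 changed sign: Fbxw11 in the third comparison with median-of-ratios size factors (-0.00091) and DESeq2 (-0.0010) and between -0.023 and 0.042 over the fits without 1 library, Csnk2a1 there between -0.031 and 0.026, and Csnk1e in the second between -0.046 and 0.011. Without division by length the mean log2 ratios were 1.23 for Csnk1d to Csnk1e and -1.80 for Btrc to Fbxw11. Leaving out 1 library moved the difference in the Btrc to Fbxw11 ratio between 0.069 and 0.13 (the second comparison) and between 0.15 and 0.21 (the third). The deviations of same-numbered libraries correlated at -0.211, -0.102 and -0.0240, so same-numbered libraries did not deviate together. Whether libraries of different lines share a preparation or batch was not tested. With the replicate block Fbxl21 gave 2.31, 1.33 and -0.98, and of the 9 genes 1 was called in each comparison. With 2 libraries per line and 35 to 204 counts, Fbxl21 is the least precise of the 9. The cause of these changes was not tested beyond what is named.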
